A study of Mus musculus with 4 samples.

Results

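Pituicytes are the glia of the posterior lobe of the pituitary. They derive from the floor of the developing hypothalamus and lie around the axon terminals that release oxytocin and vasopressin into the blood. In this lobe they are known for covering or uncovering terminals and capillaries when hormone demand changes, and for sharing genes with astrocytes and with tanycytes, the glia that line the floor of the brain ventricle next to the pituitary stalk. Here pituicyte-like cells were picked from droplet single-cell RNA-seq of whole mouse pituitary glands by 6 genes: Col25a1, Scn7a, Rax, Lhx2, Vcan and Nkx2-1. A barcode was a member if at least 3 of the 6 genes had a UMI (unique molecular identifier, the count of an RNA molecule) and growth hormone, prolactin and Pomc RNA together made up under 10% of its UMIs. Barcodes under 500 genes, or with more than 20% of UMIs from mitochondrial genes, were left aside. There were 164 members among 27220 such barcodes, out of 34737 in the 4 libraries.

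The libraries came from glands of wild-type C57BL/6J males fed a high-fat diet (HFD 1 and HFD 2) or a control diet (CTRL 1 and CTRL 2) for 12 weeks. Glands were dissociated with collagenase and trypsin, and the 3' ends of polyadenylated RNA were tagged on the 10x Genomics Chromium platform (3' v3.1). How many glands went into a library, and whether libraries of a diet came from different animals, is not given in the sources used here, so the p-values below reflect the spread among these 4 libraries, part or all of which may be technical. Members numbered 38 in HFD 1 and 60 in HFD 2, against 21 in CTRL 1 and 45 in CTRL 2. Their summed UMIs were 306882 in HFD 1 and 1131957 in HFD 2, against 440314 in CTRL 1 and 819838 in CTRL 2. The median member held 6606 UMIs in HFD 1 and 18245 in HFD 2, against 16075 in CTRL 1 and 18566 in CTRL 2. HFD 1 was thus the shallowest library for these cells.

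HFD 1 shared many barcodes with 2 other libraries. It held 3116 barcodes that were also in HFD 2 and 1423 that were also in CTRL 2, whereas the other pairs of libraries shared between 14 and 22. Of those shared with HFD 2, 3102 had fewer UMIs in HFD 1 by a factor of more than 5. Their HFD 1 total was a median of 5.58% of the HFD 2 total, with 5th and 95th percentiles of 5.10% and 6.18%, and the totals ranked almost alike (Spearman rho 0.983 over these barcodes, as a description). With CTRL 2 the same held in both directions. There, 1007 barcodes had a median of 2.87% of the CTRL 2 total in HFD 1, and 397 had a median of 2.51% of the HFD 1 total in CTRL 2. A barcode with under 1 in 5 of the UMIs that the same barcode had in another library is called a shadow barcode below. Of the 38 members in HFD 1, 14 were shadow barcodes, and no member of the other libraries was one. Of these 14, 13 were also members in HFD 2 and 1 in CTRL 2. They held a median of 1100 UMIs and at most 2238, together 17094 of the UMIs of HFD 1 members. Without them HFD 1 had 24 members with a median of 12299.5 UMIs, and all libraries together had 150 members. How these barcodes came to be in both libraries was not tested. Results are given with and without them where they could differ.

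**Figure D1:**
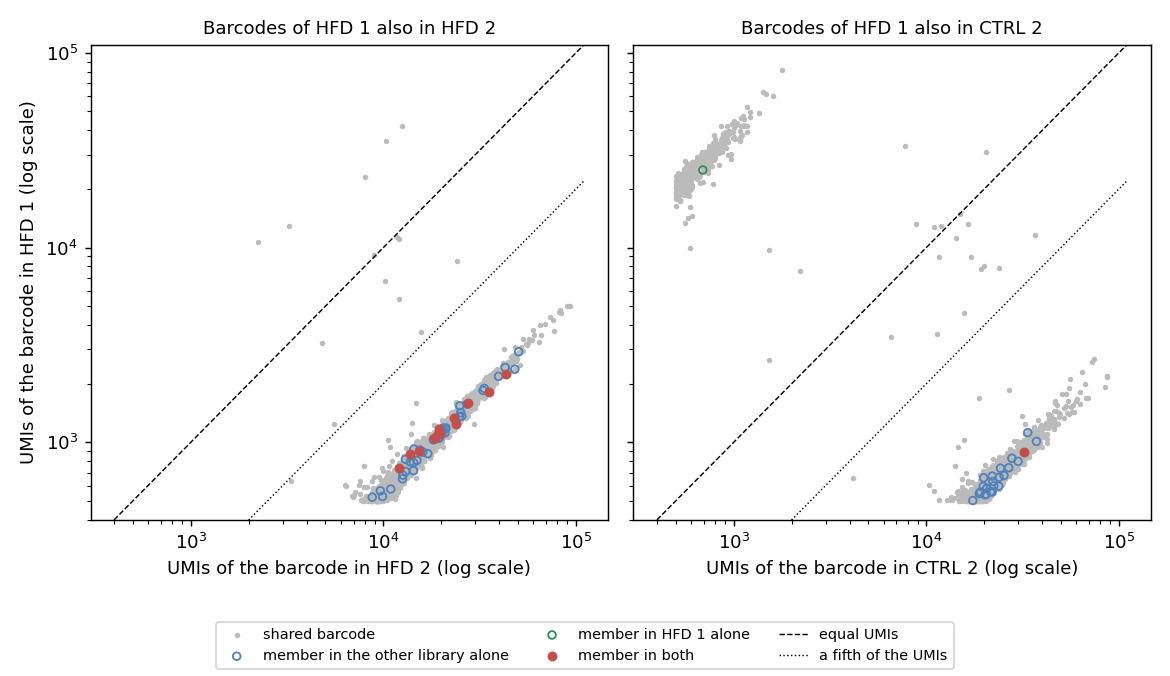
UMIs of each barcode found in HFD 1 and also in HFD 2 (left) or CTRL 2 (right), both axes on a log scale; every grey point is a barcode, open blue circles are members in the other library alone, open green circles members in HFD 1 alone, red points members in both. The 14 red points lie far below the line of equal UMIs, in a band at a median of 5.58% of the HFD 2 total on the left and 2.87% of the CTRL 2 total on the right; the upper band on the right holds the 397 shadow barcodes of CTRL 2.

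The members were chosen by the 6 genes, so the levels of these genes are a description and carry no test. Levels are counts per 1e6 UMIs (CPM), from the UMIs summed over the members of a library. Col25a1, a membrane collagen of neural tissue (chromosome 3, 130131501 to 130599877, plus strand, mm10), had 1157 and 913 CPM in HFD members, against 833 and 966 CPM in CTRL members, and a mean of 3.24 CPM in all other barcodes. Scn7a, a sodium channel family member known from glia of salt-sensing brain regions (chromosome 2, 66673425 to 66784914, minus strand), had 1649 and 1299.5 CPM in HFD members and 1067 and 1288 CPM in CTRL members, against 2.46 CPM in the other barcodes. These were the most often detected of the 6 genes, in 162 and 155 of 164 members. Rax, a homeobox factor of the infundibulum and of tanycytes, had 476 and 400.2 CPM in HFD members and 298 and 400.1 CPM in CTRL members, against 0.889 CPM elsewhere. Lhx2, a LIM homeobox factor that the posterior lobe needs in order to form in mice (chromosome 2, 38339281 to 38369733, plus strand), had 205 and 183 CPM in HFD members and 102 and 129 CPM in CTRL members, against 0.354 CPM elsewhere. Nkx2-1, a homeobox factor of the ventral hypothalamus (chromosome 12, 56531958 to 56536908, minus strand), had 209 and 155 CPM in HFD members and 175 and 129 CPM in CTRL members, against 0.0772 CPM elsewhere. It was at 0 in the stem, endothelial and fibroblast comparison sets described below.

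Vcan, the sixth gene, went against the label. It had a UMI in 7 of 164 members (4.27%), 16 UMIs in all, at 3.26 and 0 CPM in HFD members and 22.7 and 6.1 CPM in CTRL members, against a mean of 4.55 CPM in the other barcodes. All 10 Vcan UMIs of CTRL 1 came from its deepest member, a barcode of 65408 UMIs with 3 rule genes and no UMI of Col25a1, Scn7a or Nkx2-1, and without it CTRL 1 had 0 CPM. Vcan encodes versican, a large matrix proteoglycan. Without thinning, a UMI of Vcan was about as frequent in stem-set barcodes (5.24%) and fibroblast-set barcodes (6.39%). Depth was unlike, with library medians of 6065.5 to 8298 UMIs in the fibroblast set. The other 5 genes therefore carried the choice, and 100 members had all of them without Vcan. The numbers of members with 3, 4, 5 and 6 rule genes were 26, 33, 103 and 2, and with shadow barcodes left out they were 14, 31, 103 and 2. Since deeper barcodes show more genes, 145 members with at least 3000 UMIs were thinned to 3000 UMIs each, with 19 shallower members left out. Col25a1 was then seen in 90.3% of members, Scn7a in 89.0%, Rax in 67.6%, Lhx2 in 40.7%, Nkx2-1 in 37.2% and Vcan in 0.690%. In 1145 thinned endothelial-set barcodes, which should lack these genes, the shares were 6.29% for Col25a1, 0.437% for Scn7a, 0.0873% for Vcan and 0% for Rax, Lhx2 and Nkx2-1. Scn7a was not limited to the members: 12.9% of 417 thinned fibroblast-set barcodes had it.

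Barcodes just outside and just inside the border of the rule were compared. The 130 barcodes with exactly 2 of the 6 genes, just outside, had 409 CPM of Ptn and 42.6 CPM of Slc1a3, a pair of glial genes that the rule did not use, and 24.6% of them had an Slc1a3 UMI. The 26 members with exactly 3 genes, just inside, had 1768 CPM of Ptn and 157 CPM of Slc1a3, with Slc1a3 in 46.2%. The 33 members with 4 genes had 3953 and 430.2 CPM of these genes with Slc1a3 in 97.0%, and the 105 members with 5 or 6 had 4412 and 435 CPM with Slc1a3 in 99.0%. Pooled over libraries, members with exactly 3 rule genes thus lay between the outside barcodes and the other members in both genes. For Slc1a3 this did not hold in every library: in HFD members with 3 genes it had 446 and 209 CPM, and in CTRL members with 3 genes 13.0 and 80.4 CPM, so that CTRL 1 was below its own outside barcodes (57.5 CPM). In CTRL 1, 65408 of the 76707 UMIs of members with 3 genes came from its deepest member, which had no Ptn or Slc1a3 UMI. In CTRL 2, 27799 of 37331 such UMIs came from a member with 2 Ptn UMIs and no Slc1a3 UMI. In HFD 1, 25010 of 40325 came from a member with 10 Ptn and 12 Slc1a3 UMIs. The pooled levels of members with 3 genes thus leaned on these deep members, and levels without all of them were not computed. Without CTRL 1 the pooled levels were 2435 CPM of Ptn and 248 CPM of Slc1a3. Of the 26 members with 3 genes, 12 were shadow barcodes. The other 14, these deep members among them, had 1535 CPM of Ptn and 136 CPM of Slc1a3. Of the 130 outside barcodes, 68 owed their place to a Vcan UMI. A further 16 barcodes had at least 3 rule genes and 10% or more hormone UMIs, and were not members: 3 in HFD 1 and 6 in HFD 2, against 2 in CTRL 1 and 5 in CTRL 2.

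Markers of other cell types were counted in the members. Of 6 fibroblast markers, HFD 1 members showed none, and Lum, Col3a1 and Pdgfra were at 0 in all 4 libraries. The summed fibroblast markers ranged from 0 to 15.9 CPM in HFD members and from 22.7 to 35.4 CPM in CTRL members. Of the 7 Schwann or oligodendrocyte-lineage markers, Sox10 and Foxd3 were among those at 0 in every library, and the sum of the 7 lay at 19.4 to 19.6 CPM in HFD members and 19.5 to 31.8 CPM in CTRL members. The summed endothelial markers were 24.7 to 26.1 CPM in HFD members and 25.0 to 43.9 CPM in CTRL members, with Pecam1, Cdh5 and Emcn at 0 except in CTRL 2. Pericyte, macrophage and ependymal markers summed to at most 7.95 CPM in any library. Neuron markers summed to 169 and 30.0 CPM in HFD members and to 36.3 and 42.7 CPM in CTRL members. Most of the HFD 1 neuron sum came from 1 member, the deepest of that library, with 0.204% of its own UMIs in these markers. Red cell markers summed to 45.6 and 61.8 CPM in HFD members and 54.5 and 24.4 CPM in CTRL members. Stem or folliculostellate markers, given below, were more abundant than any of these.

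Hormone-cell RNA was present and uneven. Corticotrope and melanotrope markers, mostly Pomc, summed to 7697 CPM in HFD 1 and 444 CPM in HFD 2, against 466 CPM in CTRL 1 and 2282 CPM in CTRL 2. A member of HFD 1 had 9.22% of its own UMIs in these markers and a member of CTRL 2 had 8.57%. The highest share in any member was 0.560% in HFD 2 and 0.428% in CTRL 1. The HFD 1 member held 25010 UMIs, with 1 UMI each of Col25a1, Scn7a and Vcan as its 3 rule genes. It supplied most of the HFD 1 sum. Gonadotrope markers summed to 6.52 and 1328 CPM in HFD members, against 9.08 and 603 CPM in CTRL members. Somatotrope markers summed to 1880.2 and 3814 CPM in HFD members and 2837 and 3476 CPM in CTRL members, and lactotrope markers to 319 and 1154 CPM in HFD members and 958 and 1145 CPM in CTRL members. The thyrotrope pair Tshb and Trhr summed to 9.78 and 23.0 CPM in HFD members, against 6018 CPM in CTRL 1 and 13.4 CPM in CTRL 2. The deepest member of CTRL 1 held 2634 of the 2647 Tshb UMIs there and 14.9% of all member UMIs of that library. It had no UMI of Col25a1, Scn7a, Nkx2-1, Ptn or Slc1a3, so it lowered the CTRL 1 CPM of these genes. Putative doublets, scored against simulated pairs of barcodes, numbered 3 in HFD 2 and 4 in CTRL 2 and 0 in the other libraries. For levels, a stem set of 1621 barcodes with at least 4 of 8 stem or folliculostellate markers, an endothelial set of 1385 and a fibroblast set of 454 served as comparison. Of the members, 22 also met the stem rule, 1 the endothelial rule and 0 the fibroblast rule. The stem markers, Sox2 among them, summed to 635 and 1030.1 CPM in HFD members and to 1049 and 712 CPM in CTRL members. With putative doublets left out the log2 ratio of the share of members, HFD over CTRL, was 0.27, and with Gh, Prl and Pomc under 5% of UMIs it was 0.22; neither setting, nor leaving out the hormone genes, gave a gene called between the diets by edgeR. Requiring at least 4 rule genes, which removes the deepest member of CTRL 1, also gave 0 calls. The part of this RNA in the levels of single genes was not tested.

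Over all genes with at least 10 CPM on average in the members or in the other barcodes, 590 of 9968 (5.92%) were at least 2-fold higher in members than in the other barcodes of the same library in all 4 libraries, on the scale of log2(CPM + 10), and 344 (3.45%) were at least 2-fold lower. With shadow barcodes left out, 586 of 9972 were higher and 342 lower. Counts of gene lists below use this rule and are descriptions, because the members were chosen on RNA of the same barcodes.

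Among factors of the infundibulum and hypothalamus, 7 of the 13 measured genes (of 17 listed) were higher in this sense and 0 lower, with a list median of 1.92 on the log2 scale against 0.14 over all genes. Tbx3, a T-box factor needed for the infundibulum in mice, had 261 and 274 CPM in HFD members and 232 and 294 CPM in CTRL members, against 3.55 CPM in the other barcodes and 9.83 CPM in the stem set. Otx2, a homeobox factor of the forebrain, had 111 and 50.4 CPM in HFD members and 70.4 and 124 CPM in CTRL members, against 0.128 CPM in the other barcodes. Both genes were low in each comparison set. Tbx2, at 31.7 to 48.9 CPM in the 4 libraries against 1.39 CPM, was higher too but had 46.4 CPM in the fibroblast set. Sox2 and Sox9, neural and pituitary stem cell factors, were shared with the stem set. Sox2 had 163 and 192 CPM in HFD members and 154 and 171 CPM in CTRL members, against 287 CPM in the stem set and 29.8 CPM over all other barcodes. Six3 and Nfib were also higher. Six6, a relative of Six3 in pituitary and retina, was not: 13.0 and 79.5 CPM in HFD members and 22.7 and 8.54 CPM in CTRL members, against 151 CPM in the other barcodes. Hes5 and Zic1 had no UMI in the members.

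Astroglial genes split into a present and an absent part. Of the 14 measured (of 20), 9 were at least 2-fold higher in all libraries and 0 lower, with a median of 2.29. Slc1a3, the glutamate transporter GLAST, had 632 and 436 CPM in HFD members and 336 and 343 CPM in CTRL members, against 13.7 CPM in the other barcodes and 57 CPM in the stem set. Slc1a2, the glutamate transporter GLT-1, had 104 and 167 CPM in HFD members and 47.7 and 121 CPM in CTRL members, against 7.75 CPM in the other barcodes and 0.906 CPM in the stem set. Both transporters were thus found in the members at levels above each comparison set. Apoe, Vim, Gja1 (connexin 43), Ptprz1, Mlc1, Cdh2 (N-cadherin) and Ttyh1 were higher as well. Gja1 was also high in the endothelial set, at 312 CPM, and lay at 257 to 379 CPM in members. The classical glial markers were scarce. Gfap, the intermediate filament of astrocytes, had a UMI in 5 members (3.05%) and at most 4.88 CPM in a library. S100b, a calcium-binding protein used as a pituicyte marker in tissue sections, had a UMI in 0 of 164 members. If barcodes were independent draws, that count would allow a share of up to 1.83%. Shadow barcodes are not independent of their counterparts, so this bound is approximate. S100b was seen in 15.4% of fibroblast-set barcodes. Aqp4, the astrocyte water channel, had 0 and 22.1 CPM in HFD members and 6.81 and 2.44 CPM in CTRL members, against 84.3 CPM in the stem set. Fabp7 was at 0. Glul (glutamine synthetase) and Clu were not among the higher genes: Glul had 81.5 and 186 CPM in HFD members and 149.9 and 109.8 CPM in CTRL members, against 143 CPM in the other barcodes and 1083 CPM in the stem set.

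Genes of tanycytes and of thyroid hormone or retinoid handling gave 9 of 12 measured (of 13) higher and 0 lower, with a median of 2.50. Dio2, the deiodinase that makes active thyroid hormone, had 235 and 201 CPM in HFD members and 90.8 and 181 CPM in CTRL members, against 16.3 CPM in the other barcodes. Crym, which binds thyroid hormone in the cytosol, had 35.8 and 77.7 CPM in HFD members and 59.0 and 91.5 CPM in CTRL members, against 4.79 CPM. An activating and a binding gene of thyroid hormone were therefore both present in the members' RNA. Gpr50, an orphan receptor related to the melatonin receptors and known from tanycytes, had 61.9 and 82.2 CPM in HFD members and 34.1 and 34.2 CPM in CTRL members, against 0.0672 CPM elsewhere. Col23a1 and Adm (adrenomedullin, a vasodilator peptide) were likewise higher, Adm at 251 and 193 CPM in HFD members and 202 and 204 CPM in CTRL members, against 3.31 CPM. The retinoic acid-making enzymes were below the mean of the other barcodes: Aldh1a1 had a UMI in 5 members and Aldh1a2 in 2, and Aldh1a2 had 823 CPM in the stem set.

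Secreted signals formed the longest list of higher genes: 11 of 18 measured (of 28) were higher and 1 lower, with a median of 1.75. Fgf10, a growth factor of the infundibulum that supports the pituitary primordium in the mouse embryo (chromosome 13, 118669791 to 118792115, plus strand), had 453 and 364 CPM in HFD members and 384 and 596 CPM in CTRL members, against 2.18 CPM in the other barcodes and 36.7 CPM in the fibroblast set. Ptn, the heparin-binding factor pleiotrophin, had 4357 and 3565 CPM in HFD members and 4245 and 4768 CPM in CTRL members, against 311 CPM elsewhere. Wnt5a had 127 and 101 CPM in HFD members and 93.1 and 113 CPM in CTRL members, against 2.33 CPM. Of the 3, Fgf10 and Wnt5a are also used by the embryonic infundibulum. Vegfa, which keeps capillaries fenestrated, had 264 and 168 CPM in HFD members and 127 and 146 CPM in CTRL members, against 17.2 CPM. The binding proteins of insulin-like growth factors were split. Igfbp2, Igfbp4 and Igfbp5 were higher, with Igfbp4 at 945 and 302 CPM in HFD members and 609 and 696 CPM in CTRL members, against 18 CPM. Igfbp3 was lower, at 29.3 and 15.0 CPM in HFD members and 6.81 and 9.76 CPM in CTRL members, against 81 CPM elsewhere and 1981 CPM in the endothelial set. Tgfb2, Pdgfa, Mdk and Dkk3 completed the higher genes. Penk, the enkephalin precursor, differed among libraries, with 0 and 109 CPM in HFD members and 6.81 and 25.6 CPM in CTRL members.

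Of 13 measured matrix genes (of 19), 4 were higher and 2 lower. Bcan, the brain proteoglycan brevican, had 378 and 266 CPM in HFD members and 127 and 267 CPM in CTRL members, against 5.0 CPM in the other barcodes and under 2 CPM in each comparison set. Gpc3, a cell-surface heparan sulfate proteoglycan, had 847 and 353 CPM in HFD members and 570.0 and 699 CPM in CTRL members, against 9.70 CPM. Bcan was high beside the near absence of Vcan, a proteoglycan of the same family. Sparc and Col11a1 were higher too. Basement membrane collagen Col4a1 was lower, at 3.26 and 7.07 CPM in HFD members and 4.54 and 4.88 CPM in CTRL members, against 37.9 CPM elsewhere and 715 CPM in the endothelial set, and so was Mgp. Tnc and Cspg4 had no UMI in the members.

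Among ion, water and transmitter genes, 3 of 10 measured (of 15) were higher and 1 lower. Slc4a4, the sodium bicarbonate cotransporter of astrocytes, had 785 and 386 CPM in HFD members and 452 and 709.9 CPM in CTRL members, against 15.7 CPM. Slc6a6, the taurine transporter, had 547 and 292 CPM in HFD members and 1004 and 700.1 CPM in CTRL members, against 65.2 CPM. Lrrc8a, a subunit of the volume-regulated anion channel through which glia release taurine, lay at 48.6 to 65.9 CPM in the 4 libraries, against 15.6 CPM. Pituicytes are known for releasing taurine when the blood is dilute. The potassium channel gene Kcnk2 was lower, at 0 and 11.5 CPM in HFD members and 11.4 and 9.76 CPM in CTRL members, against 190.5 CPM. Of 15 receptors for neurohypophysial inputs, 3 were measured and 0 passed in either direction. Avpr1a, Adra1b, Drd1 and Grm3 had no UMI in the members, and Oxtr had a UMI in 1 member and Oprk1 in 2. If barcodes were independent draws, each count of 0 of 164 would allow a share of up to 1.83%. Low levels were thus not detectable at this depth. The GABA-B receptor gene Gabbr1 was the most often detected of the 15, in 57.9% of members; after thinning it was seen in 23.4% of members, against 10.7% of endothelial-set and 18% of fibroblast-set barcodes.

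Smaller parts of other lists were higher. In the Notch pathway it was Notch2 alone, of 6 measured (of 11), at 65.2 and 56.5 CPM in HFD members and 47.7 and 46.4 CPM in CTRL members, against 12.0 CPM. Among leptin, insulin and lipid genes, 5 of 15 measured (of 20) were higher, among them Angptl4, Abca1, Scd1 and Scd2. Abca1 dropped out when shadow barcodes were left out, the only listed gene to change its call. Scd1, a fatty acid desaturase, had 52.1 and 64.5 CPM in HFD members and 47.7 and 36.6 CPM in CTRL members, against 6.04 CPM elsewhere. Fabp5 was lower. Lepr, the leptin receptor, had 0 of 164 members. In reactive glia and inflammation, Bst2 was higher and Lcn2 and Il1r1 were lower, of 11 measured (of 18). Of 25 immediate-early genes 1 was lower (Fosl2), and of 13 heat shock genes and 8 glucocorticoid targets 0 passed in either direction.

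Oxytocin RNA was found with the members. Oxt, made by hypothalamic neurons whose axons end in the posterior lobe, had 55.4 and 52.1 CPM in HFD members, against 148 and 48.8 CPM in CTRL members, and a mean of 1.62 CPM in the other barcodes. CTRL 1 stood above the other 3 libraries, which were close together. A UMI was present in 56 members (34.1%). After thinning to 3000 UMIs it was seen in 13.1% of members, against 0.699% of endothelial-set and 0.663% of stem-set barcodes. Avp, the vasopressin gene, had a UMI in 4 members (2.44%), at 9.78 and 0 CPM in HFD members and 9.08 and 0 CPM in CTRL members. The source of these UMIs was not tested.

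The 20 genes with the highest ratio of members to the other barcodes, among genes in at least 30% of members and outside the rule, were Fndc3c1, Cldn10, Col13a1, Cysltr1, Fgf10, Col23a1, Gpc3, Rgs7bp, Lrrtm3, Fat3, Igfbp4, Slc4a4, Gldc, Lmo1, Car14, Abca8a, Grik3, Tbx3, Btbd17 and Htra1. Fndc3c1 (X chromosome, 106420041 to 106485401, minus strand) had 779 and 727 CPM in HFD members and 543 and 894 CPM in CTRL members, against 0.626 CPM in the other barcodes and at most 2.11 CPM in a comparison set. Cldn10, a claudin that forms paracellular ion channels (chromosome 14, 118787908 to 118875489, plus strand), had 1000.4 and 1391 CPM in HFD members and 756 and 1375 CPM in CTRL members, against 13.0 CPM, with 141 CPM in the stem set. Both were detected in 153 of 164 members. Cysltr1, a receptor for cysteinyl leukotrienes (X chromosome, 106574346 to 106603679, minus strand), had 391 and 408 CPM in HFD members and 461 and 582 CPM in CTRL members, against 1.27 CPM. Col13a1 was less even, with 1043 and 349.8 CPM in HFD members and 690.4 and 992 CPM in CTRL members, against 8.15 CPM, and it had 150.2 CPM in the endothelial set. Gldc, the glycine decarboxylase, had 283 and 127 CPM in HFD members and 234 and 263 CPM in CTRL members, against 0.420 CPM. Car14, a membrane carbonic anhydrase that works beside bicarbonate transporters, had 309.6 and 104 CPM in HFD members and 213 and 265 CPM in CTRL members, against 0.892 CPM. Igfbp4, Gpc3, Abca8a and Htra1 were also frequent in the fibroblast set, at 722, 379.9, 200.3 and 187 CPM, whereas Lrrtm3 and Grik3 were at or under 1.51 CPM in each comparison set.

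**Figure D2:**
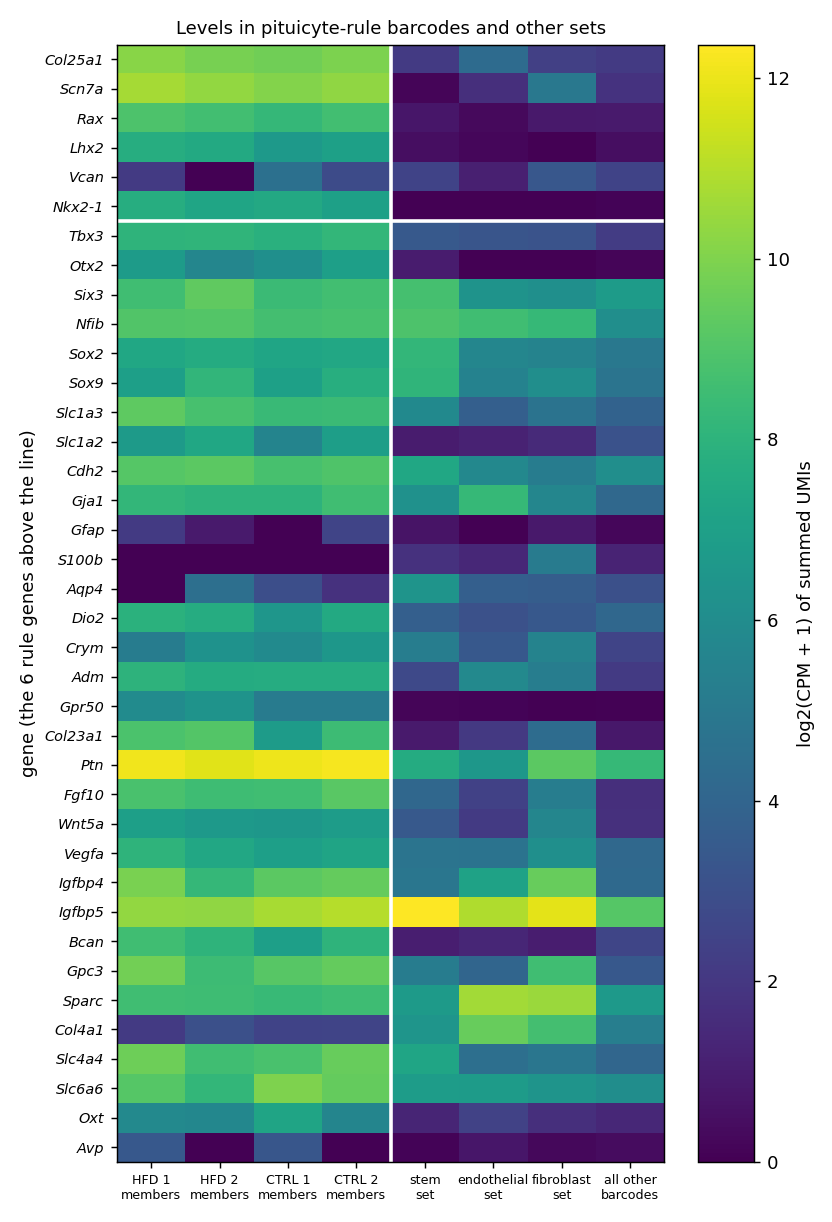
Levels of the 6 rule genes (above the white line) and 32 list genes in the members of each library (left 4 columns) and in the stem, endothelial and fibroblast sets and all other barcodes (right 4 columns, means over libraries), as log2(CPM + 1) of summed UMIs. Nkx2-1, Otx2, Gpr50 and Bcan are bright in the members alone, Vcan, Gfap and S100b are dark there, and Igfbp5, Sox2 and Sparc are shared with comparison sets.

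Members made up 0.474% of the barcodes of HFD 1 (exact 95% binomial interval 0.336 to 0.650) and 0.815% of HFD 2 (0.623 to 1.05), against 0.465% of CTRL 1 (0.288 to 0.710) and 0.614% of CTRL 2 (0.448 to 0.820). The intervals cover counting error only. The HFD mean was 0.645% ± 0.241 and the CTRL mean 0.539% ± 0.105 (SD, n = 2 each). HFD 2 was highest and CTRL 1 lowest, and the diets overlapped, since HFD 1 lay below CTRL 2. The log2 ratio of HFD over CTRL was 0.22, with an exact two-sided permutation p of 0.667; with 2 libraries against 2 that p cannot go below 0.333. With shadow barcodes left out the shares were 0.388% and 0.815% in HFD libraries, against 0.466% and 0.621% in CTRL libraries, and the log2 ratio was 0.07 (exact permutation p of 1). No difference was detectable at this number of libraries. Leaving out HFD 2 turned the direction, to -0.17. In dissociated tissue the share also depends on how much of the posterior lobe went into a library, which was not measured here.

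**Figure D3:**
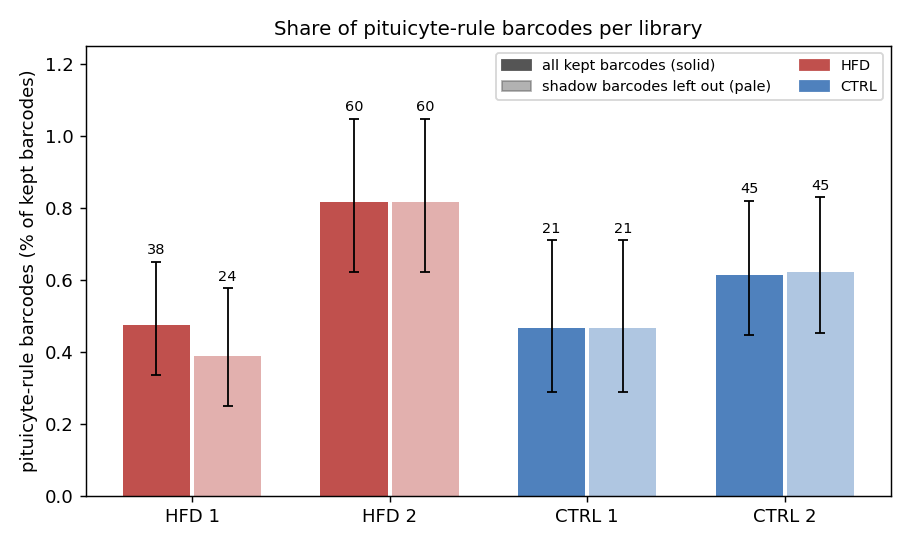
Share of pituicyte-like members among kept barcodes in each library, with HFD libraries on the left; solid bars use all kept barcodes, pale bars leave out shadow barcodes, whiskers are exact 95% binomial intervals, and the number above a bar is its count of members. HFD 1 falls to 24 members without shadow barcodes, and the bars of the diets overlap both ways.

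Gene expression was compared between the diets on UMIs summed over the members of each library, since each library had at least 10 members. With edgeR's quasi-likelihood test and Benjamini-Hochberg adjustment, 0 of 7726 tested genes (0%) passed an adjusted p of 0.05. At an unadjusted p under 0.05 there were 275 genes (3.56%), 158 of them higher in HFD members (2.05% of tested genes) and 117 lower (1.51%). DESeq2 also called 0 genes, with 54 at an unadjusted p under 0.05. With shadow barcodes left out, edgeR called 0 of 7685 genes, with 241 at an unadjusted p under 0.05. The count rested on which libraries were in the fit: without HFD 1, HFD 2 or CTRL 2 edgeR called 24, 81 and 66 genes, where the remaining library of that diet borrows its spread from the other diet. Without CTRL 1 it called 0. The 66 calls without CTRL 2 became 7 when shadow barcodes were also left out, and the other counts were then 24 without HFD 1 and 88 without HFD 2.

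No gene of any list passed. The medians of the lists, HFD minus CTRL, ran from -0.86 for the 1 tested hormone gene (Oxt) to 0.55 for the 7 tested glucocorticoid targets on the log2 scale, against 0.00 over all tested genes. Values are given for the 5 list genes at an unadjusted p under 0.01 in edgeR's test, picked after their values had been seen; the diets did not overlap in any of them, nor in 31.1% of all tested genes. Cd44, a hyaluronan receptor of reactive glia, had 58.7 and 59.2 CPM in HFD members, against 11.4 and 15.9 CPM in CTRL members (log2 1.99, SE 0.37). Nes, the filament nestin, had 71.7 and 83.0 CPM in HFD members, against 15.9 and 39.0 CPM in CTRL members (log2 1.35, SE 0.37). Gpr50 had the values given above (log2 1.07, SE 0.29). In these 3 genes both HFD libraries lay above both CTRL libraries. The taurine transporter gene Slc6a6 had both HFD libraries below both CTRL libraries (log2 -1.08, SE 0.33). Egr3 had 0 and 3.53 CPM in HFD members, against 29.5 and 19.5 CPM in CTRL members (log2 -3.11, SE 0.77), and rested on 4 UMIs in HFD members. The order was the same in all other barcodes of these libraries, where Egr3 had 13.7 and 16.5 CPM in HFD and 32.4 and 29.6 CPM in CTRL; the difference between members and other barcodes was not tested. The edgeR adjusted p was 1.00 for each of the 5. With shadow barcodes left out the log2 values were 1.96 for Cd44, 1.33 for Nes, 1.07 for Gpr50, -1.05 for Slc6a6 and -3.09 for Egr3, with adjusted p of 1.00 again.

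Immediate-early and heat shock genes differed between libraries of the same diet. Of 24 tested immediate-early genes, the fast-response factors induced by stimulation and by dissociation, 17 were higher in both HFD 2 and CTRL 2 than in either HFD 1 or CTRL 1. This held for 18.5% of all genes tested in the members. Of 13 heat shock genes 12 did so. Fos had 293 CPM in HFD 1 and 2645 CPM in HFD 2, against 463 CPM in CTRL 1 and 1731 CPM in CTRL 2. Jun had 228 and 1628 CPM in the HFD libraries, against 513 and 1473 CPM in the CTRL libraries. Dnajb1, a co-chaperone of the heat shock response, had 68.4 and 349.8 CPM in the HFD libraries, against 114 and 318 CPM in the CTRL libraries. In each of these genes the libraries numbered 1 were low and those numbered 2 high. In the other barcodes of the same libraries this order was found in 5 of the 24 and 2 of the 13 genes, with 14.8% of the same 7726 genes. Fos had 1404 and 1658 CPM there in HFD libraries, against 1997 and 2357 CPM in CTRL libraries. The counts in members were also 17 and 12 with shadow barcodes left out. Part of the hormone-cell RNA in the members ran in the same library order. The gonadotrope, somatotrope and lactotrope sums given above were each higher in HFD 2 and CTRL 2 than in HFD 1 and CTRL 1. The corticotrope and melanotrope sum, highest in HFD 1, and the thyrotrope sum, highest in CTRL 1, did not follow it. All 7 putative doublets were in HFD 2 and CTRL 2. With putative doublets left out the counts were 17 and 12, with Gh, Prl and Pomc under 5% they were 19 and 12, and with at least 4 rule genes 21 and 12. The putative doublets did not include the deepest members of HFD 1 and CTRL 1, both rich in hormone-cell RNA. The setting under 5% kept the deepest member of CTRL 1. The part of hormone-cell RNA in the library order was not tested. The pattern was noticed in the data and carries no test. The labels give the library numbers no meaning beyond replicate. Some immediate-early genes also differed by diet at an unadjusted p under 0.05 in edgeR's test, none after adjustment. Nr4a1, Nr4a2 and Nr4a3 were higher in HFD members, and Egr3 and Klf4 were lower. Over all tested genes 2.05% were higher and 1.51% lower. Nr4a1 had 65.2 and 61.0 CPM in HFD members and 31.8 and 31.7 CPM in CTRL members. In the other barcodes it had 130 and 150 CPM in HFD and 279 and 229 CPM in CTRL.

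**Figure D4:**
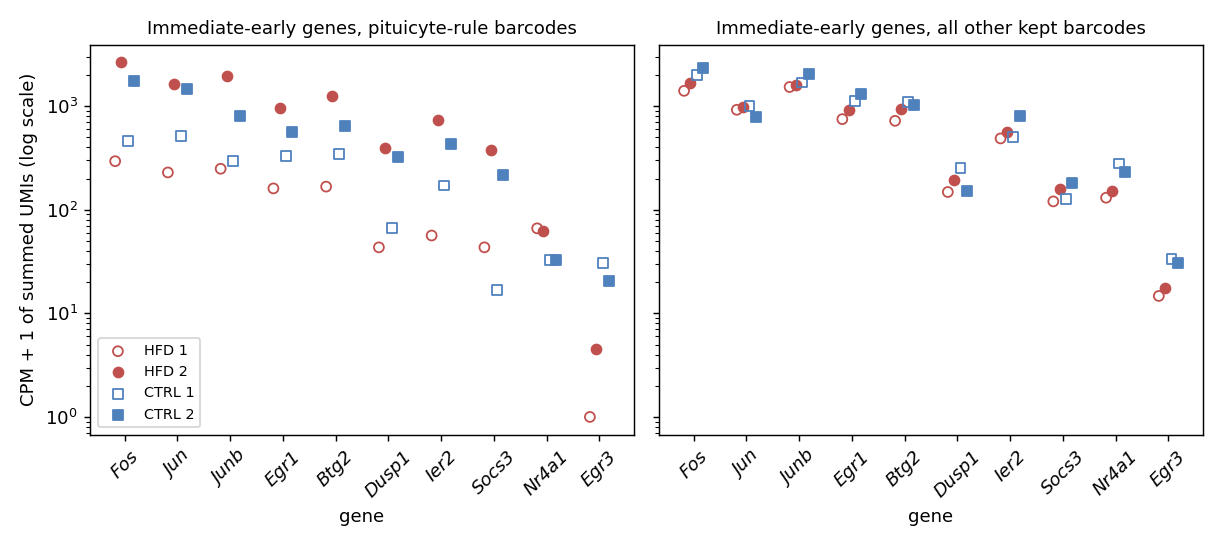
Levels of 10 immediate-early genes as CPM + 1 of summed UMIs (log scale) in pituicyte-like members (left) and in all other kept barcodes (right); red circles are HFD libraries, blue squares CTRL libraries, open symbols libraries numbered 1 and filled symbols libraries numbered 2. In the members 8 of the 10 genes, from Fos to Socs3, have both filled symbols above both open ones, while Nr4a1 and Egr3 do not; in the other barcodes Ier2 and Socs3 alone of the 10 do, and Fos, Junb, Egr1, Btg2, Nr4a1 and Egr3 have both HFD libraries below both CTRL libraries.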

How the data were processed

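The deposited matrices held raw UMI counts as whole numbers, with 32285 genes in rows and barcodes in columns. Cell Ranger 6.1.2, Seurat 4.3 and build mm10 are named, without roles, per the submitters' processing notes; the annotation, the strand setting and the cell calling were not given in the sources used here, so overlapping or antisense genes are uncertain. The lowest UMI total of a barcode was 500. The members, gene lists and comparison sets (at least 4 markers, not members, under 10% of Gh, Prl and Pomc) were chosen with earlier results of these data known.

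Counts were summed per library and scaled to CPM. No cell was used as a replicate in the comparisons of diets. The binomial intervals of shares and the bounds for counts of 0 treat barcodes as independent. Diets were compared with edgeR 4.0.16 (R 4.3.3), quasi-likelihood F-test, TMM scaling, filterByExpr and Benjamini-Hochberg adjustment over all tested genes, with n = 2 libraries per diet. DESeq2 1.42.0 was an alternative. Log2 values and SE are from the fit. Counts were simulated with these library sizes and the same dispersion of 0.05 for every gene. Changed genes were drawn only from those expected to hold at least 10 UMIs in the library with the fewest member UMIs. Of these, 92.9% of 99 genes changed by 2 on the log2 scale and 14.9% of 101 changed by 1 were recovered. There were 3 false calls, among 7681 tested genes. Recovery of changes in genes with fewer UMIs was not simulated. The dispersion of 0.05 was assumed and not compared with the spread of the data. The recovered shares therefore do not say which changes the diet comparison could have missed. Shares have exact Clopper-Pearson intervals. Putative doublets were scored per library against 2 simulated pairs per barcode, at an assumed 0.8% per 1000 barcodes, and kept in the members. Depth was 74758237 to 101903367 UMIs per library. Genes named were the 6 rule genes, the list genes and the 20 highest ratios of members to other barcodes (pseudocount 10 CPM). The text also names list genes at an unadjusted p under 0.01, chosen after their values were seen. Coordinates are those of GENCODE M21 on mm10. Some listed genes are not reported here.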

Additional observations from a re-analysis of the deposited data

Results flagged for a closer look

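Barcodes outside the filters were searched for the rule genes. In HFD 1, 8 of 2909 such barcodes (0.275%) had at least 3 of the 6 rule genes, against 0 in HFD 2, 0 of 2950 in CTRL 1 and 1 of 839 (0.119%) in CTRL 2. HFD 1 was listed for lying above both CTRL libraries. Of its 8 barcodes, 7 were shadow barcodes, with under 1 in 5 of the UMIs that the same barcode had in another library.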

How the results depend on the processing

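The log2 ratio of the share of members, HFD over CTRL, was 0.22 and stayed above 0, with overlapping diets, under the 9 other definitions of members and barcodes, at 0.003 (at least 4 rule genes) to 0.28 (thinned to 3000 UMIs). Leaving out each library gave -0.17 (without HFD replicate 2, the reversed direction) to 0.61 (without HFD replicate 1). With the replicate number as a block it was 0.22 (exact p 0.5, the lowest value that 2 pairs can give). The block left the edgeR count of changed genes at 0. The numbers were not shown to pair the libraries. Deviations of same-numbered libraries from their diet means correlated at 0.0695. With 2 libraries per diet this is a single value, the same for either pair by construction. It has no reference value, so it cannot decide whether the numbers pair the libraries.

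The count of genes called was 0 under the 12 alternatives that kept all libraries and the low-count filter, DESeq2 included. Leaving out each library gave 0 to 81 genes. With shadow barcodes left out as well it gave 24 without HFD 1, 88 without HFD 2, 0 without CTRL 1 and 7 without CTRL 2. The settings on shadow barcodes and on members of at least 3000 UMIs were added after the data were seen. Without the filter on low counts there were 85 calls among 16340 genes. The cause of these calls was not tested. Over the alternatives that gave a value, the log2 change and edgeR or DESeq2 adjusted p ran from 1.77 to 2.57 (0.0016 to 1.00) for Cd44, 0.91 to 2.24 (0.012 to 1.00) for Nes, 0.81 to 1.63 (0.198 to 1.00) for Gpr50, -1.61 to -0.60 (0.018 to 1.00) for Slc6a6 and -6.66 to -2.76 (0.0077 to 1.00) for Egr3. None changed direction. Cd44 and Nes passed in 2 alternatives (without CTRL 2, and without the low-count filter), Slc6a6 in 1 and Egr3 in 1. Member sums of 306882 to 1131957 UMIs limit what can be seen of low genes.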
